A study of Arabidopsis thaliana with 6 samples.

Results

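The transcripts described here stood higher in wounded leaves of Arabidopsis thaliana 10 min after wounding and at most slightly above the unwounded level in distant leaves of wounded plants. They were chosen from the measured levels themselves: a probe set (the group of array probes that reads 1 transcript or a few similar ones) is a member if the mean of the local arrays exceeded that of the control arrays by at least 1.2 on the log2 scale, the mean of the systemic arrays exceeded control by at most 0.3, and both local arrays lay above the other 4. Of 22746 probe sets, 68 were members, 0.299% of all and 11.8% of the 576 with a local difference of at least 1.2, which were 2.53% of all probe sets. Both local arrays lay above the other 4 in 13.7% of all probe sets. Since all 3 group means and the order of the arrays chose them, no comparison between these groups is a test of the members, and their levels are given as a description. The calmodulin-like gene CML37, at 7.23 and 7.30 in local, 3.92 and 3.79 in systemic and 3.88 and 3.81 in control leaves, met these limits but was left out, since symbols beginning with CML, PUB or WRKY and mitochondrion-encoded genes are not counted here. It was the 1 probe set that this removed. Symbols are known only for probe sets with a listed gene, so the members without one may include genes of these kinds.

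All plants were of the Columbia ecotype, 5 weeks old and grown in soil at 21 °C with 10 h of light a day, and the labels give no mutation or transgene in any group. Local samples were pools of rosette leaves clamped across the midvein with tweezers, 3 leaves per plant, systemic samples were pools of the unwounded leaves of wounded plants, and control samples were pools of leaves of plants that were not wounded. Each pool came from 3 plants, was harvested 10 min after wounding in the local and systemic groups, and was read on 1 Affymetrix array, with 2 biological replicates per group. A single time was sampled, pools hide the spread between plants, and whole leaves were used, so that more cells of a type and more RNA per cell cannot be told apart.

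Damage to a leaf sets off several fast signals. Calcium ions enter the cytosol of the injured tissue, the membrane potential changes, and glutamate receptor-like channels carry electrical and calcium signals along the veins to other leaves, where jasmonate synthesis begins. The injured leaf also has broken cells, released cell contents and wall fragments, and lost water, which a distant leaf does not have. A transcript that is higher in the injured leaf alone at a given time is therefore commonly called a local wound response, while one that is higher in both is called systemic.

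Of the 68 members, 36 probe sets carry 1 listed gene and stand for 35 genes, 1 carries several and 31 carry none in the annotation used here and are given by probe set only. Among the 35 genes HEMA2 is the one with a symbol beyond its locus number. The local minus control difference of the members had a median of 1.60 with quartiles of 1.36 and 2.13, and a range of 1.21 to 5.52. It was at least 2 in 19 members, at least 3 in 6 and at least 4 in 3. The lowest local array lay at least 1 above the highest of the other 4 arrays in 48 members, and less than 0.5 above in none of the 68.

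**Figure D1:**
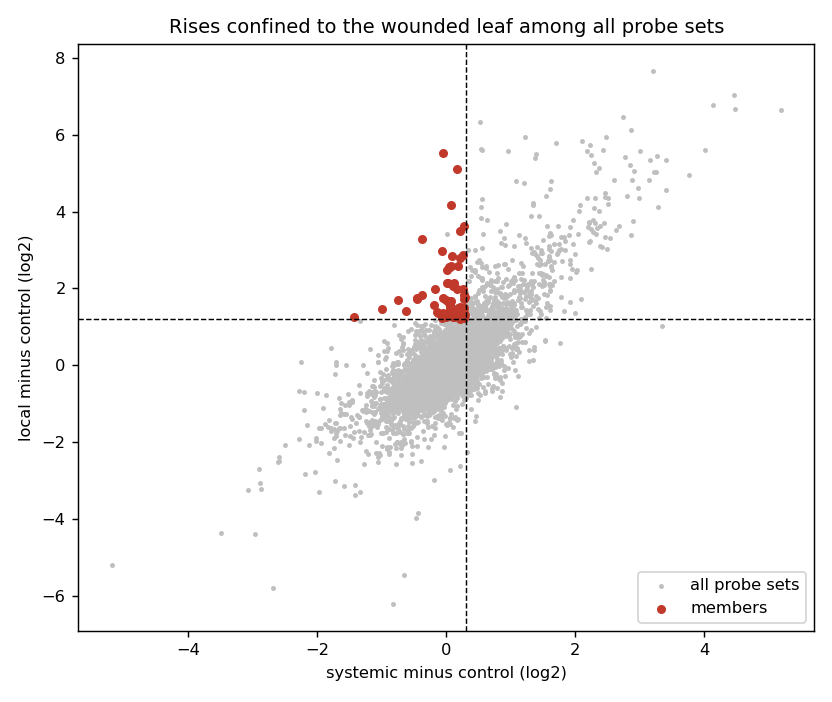
Systemic minus control (x axis, log2) against local minus control (y axis, log2) for each of 22746 probe sets, with the 68 members in red and dashed lines at 0.3 and 1.2. Most probe sets with a large local difference lie to the right of the vertical line, and the members form a sparse column that reaches 5.52 at a systemic difference near 0. CML37, which was left out by its symbol, is the grey point inside that column at 3.42.

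The members differed from the other strong rises in their systemic values because of the way they were chosen. The 466 probe sets with a local difference of at least 1.2, both local arrays above the other 4 and a systemic difference above 0.3 had a median local difference of 2.05 and a median systemic difference of 0.99. Members had a median systemic difference of 0.08, with quartiles of -0.01 and 0.21. The rule set no lower limit on the systemic difference, and it was below -0.3 in 8 members, down to -1.43. In 9 members both control arrays lay under the lower quartile of their array (4.41 to 4.48 over the 6 arrays), and in 7 of them both systemic arrays did too. Such levels may be close to background, where a fold is compressed, but background was not measured here. Levels of different probe sets also depend on their probes and are not compared with each other.

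A moderated linear model (limma) fitted to all probe sets gives the standard errors and the background for these values. By that model, adjusted p under 0.05, 67 of 68 members were higher in local than in control leaves, where 9.92% of all probe sets were, and 68 of 68 were higher in local than in systemic leaves, where 4.77% of all were. Both contrasts chose the members, so nothing is read from these counts. The exception was the unnamed probe set 249867_at, with a local difference of 1.27 ± 0.45 (SE). In systemic against control leaves limma called none of the 68 members after adjustment, with 4.73% of all probe sets higher and 3.67% lower, and at an unadjusted p under 0.05 it gave 4 members higher and 6 lower, where 10.5% of all probe sets were higher and 11.7% lower. The rule used this contrast too. The unnamed probe set 264261_at was called lower in systemic leaves with the replicate number as a block (limma, adjusted p = 0.033) but not in the main fit (0.15). Nothing is read from that call either. Without systemic replicate 2, 1 systemic array is left. The systemic differences of the unnamed probe sets 245891_at, 249867_at and 259426_at were then -1.75, -2.16 and -0.72. Over all probe sets limma called 2257 higher and 3117 lower in local leaves, and 2806 higher and 2315 lower after cyclic loess scaling.

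The largest local difference among members with a listed gene was that of AT5G38700. Its level was 8.28 and 7.95 on the local arrays, 4.17 and 3.87 on the systemic arrays and 3.89 and 3.99 on the control arrays, a local difference of 4.17 ± 0.14 (log2, SE). Systemic and control arrays overlapped and all lay under the lower quartile of their arrays, so the difference may be compressed by background. AT5G65300 had 8.59 and 8.60 in local, 5.49 and 5.15 in systemic and 5.08 and 5.13 in control leaves, a difference of 3.49 ± 0.12 (SE). AT3G27210 had 7.90 and 8.17 in local leaves, against 4.52 and 4.21 in systemic and 4.86 and 4.62 in control leaves. Here both systemic arrays were below both control arrays, while the local difference was 3.3 ± 0.15 (SE). AT1G73510 was at 6.49 and 7.11 in local leaves and under the lower quartile on all systemic and control arrays (3.78 and 3.75, and 3.75 and 3.93). Its difference of 2.96 may be compressed by background.

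The largest local differences of all members were those of probe sets with no listed gene. The probe set 252368_at stood at 10.58 and 10.81 in local leaves, against 5.00 and 5.25 in systemic and 5.08 and 5.26 in control leaves, a difference of 5.52 ± 0.13 (SE) or 46-fold. Its systemic and control arrays overlapped within 0.26. The probe set 247431_at had 9.47 and 9.64 in local, 4.63 and 4.57 in systemic and 4.37 and 4.50 in control leaves, a difference of 5.12 ± 0.10 (SE), and its systemic arrays both lay slightly above its control arrays. Neither is given a gene here. The 32 members without a single gene had local differences of 1.22 to 5.52 with a median of 1.54, and the 36 with one had 1.21 to 4.17 with a median of 1.74.

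**Figure D2:**
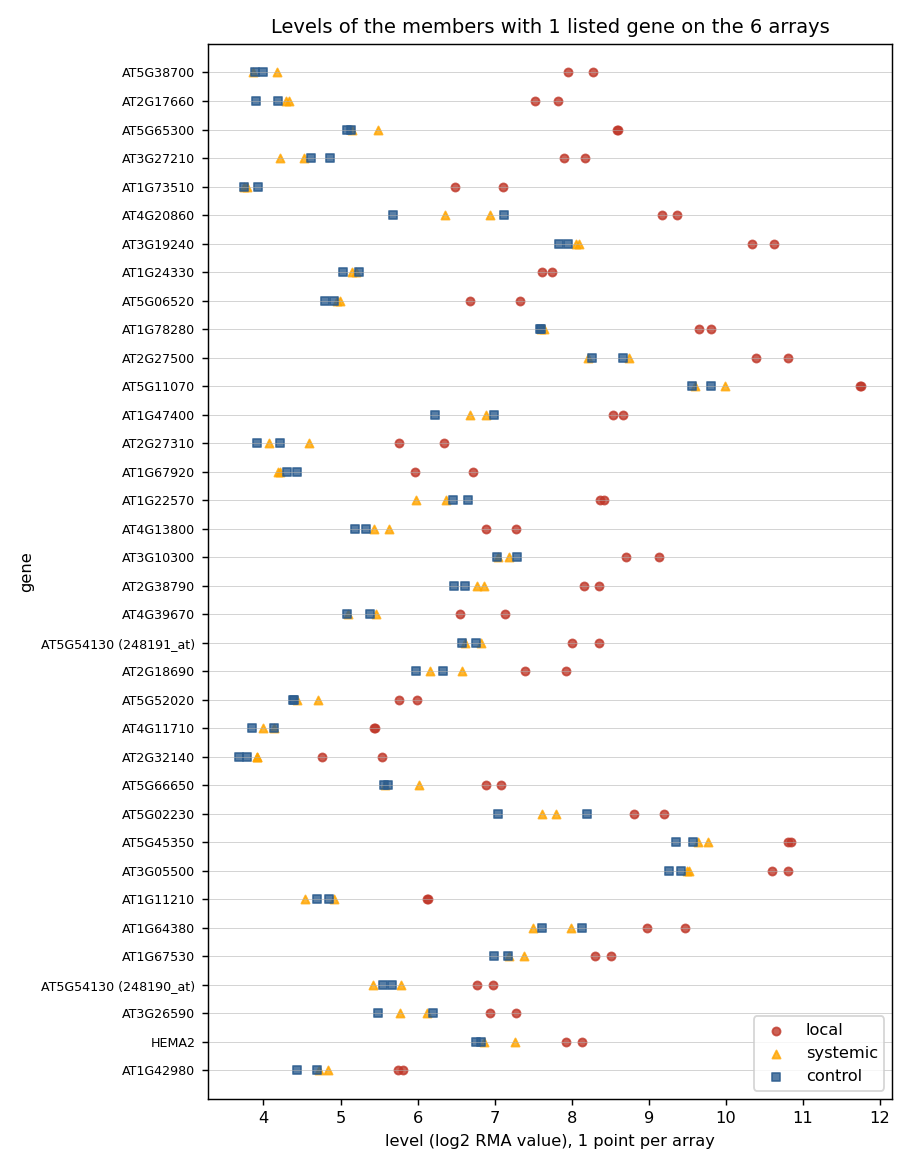
Level (x axis, log2 RMA value) of the 36 members with 1 listed gene (y axis, sorted by local minus control), 1 point per array for local (red circles), systemic (orange triangles) and control (blue squares). The local points are apart from the other 4 in each row, as the rule requires, while systemic and control points overlap or lie close together. AT4G20860 and AT5G02230 show control arrays that are far from each other.

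Members were grouped by what their products are known to do, after their values were known, so the groups order the text and support nothing. Only the 35 named genes could be grouped, so the counts are not the make-up of all 68 members. Of 313 genes in the lists given below, 30 were measured under a name. Genes of these and other roles may thus be among the members without a listed gene. The calcium group held 3 genes, named for the ion whose rise in the cytosol is among the first events of wounding. AT3G10300 encodes a protein with EF-hand motifs, the helix-loop-helix that binds calcium. Its level was 9.14 and 8.71 in local leaves, against 7.18 and 7.04 in systemic and 7.03 and 7.29 in control leaves, a difference of 1.76 ± 0.16 (SE) with systemic and control arrays overlapping. AT5G54130, which encodes a calcium-binding protein of the endonuclease/exonuclease/phosphatase family, was read by a pair of probe sets, and both were members. The first, 248191_at, had 8.36 and 8.0 in local, 6.61 and 6.82 in systemic and 6.76 and 6.57 in control leaves. The second, 248190_at, had 6.98 and 6.77 in local, 5.42 and 5.79 in systemic and 5.56 and 5.66 in control leaves. The local differences of the pair were 1.52 ± 0.14 and 1.27 ± 0.14 (SE), and in both the systemic arrays overlapped the control arrays. AT5G66650, of the calcium uniporter family that carries calcium into organelles, was at 7.08 and 6.89 in local, 6.02 and 5.58 in systemic and 5.61 and 5.57 in control leaves. The first systemic array stood above both control arrays while the second lay between them, a gap of 0.44 between the systemic pools.

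Transcription factors were represented by 2 named members of the AP2/ERF family, plant factors that act in stress and hormone responses. AT5G52020 had 5.76 and 6.00 in local leaves, against 4.71 and 4.43 in systemic and 4.39 and 4.38 in control leaves, with control arrays under the lower quartile and a difference of 1.49 ± 0.13 (SE). AT1G64380 was at 8.98 and 9.47 in local, 7.5 and 7.99 in systemic and 8.14 and 7.61 in control leaves. Its replicates differed by 0.49 in local, 0.49 in systemic and 0.53 in control leaves, against a local difference of 1.35 ± 0.24 (SE), and systemic and control arrays overlapped.

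Protein turnover was the role of 4 named genes. The U-box and F-box are domains of ubiquitin ligases, the enzymes that mark proteins for breakdown. AT1G24330 and AT1G67530 encode related proteins with a U-box and armadillo repeats. The annotation used here lists them by locus number, so leaving out symbols that begin with PUB did not remove them. AT1G24330 stood at 7.62 and 7.75 in local leaves, against 5.20 and 5.14 in systemic and 5.03 and 5.24 in control leaves, a difference of 2.55 ± 0.11 (SE), with the 4 unwounded arrays within 0.22 of each other. AT1G67530 had 8.51 and 8.30 in local, 7.37 and 7.18 in systemic and 7.17 and 6.99 in control leaves, so that its systemic arrays lay slightly above both control arrays and its local difference was smaller, 1.32 ± 0.12 (SE). AT2G27310 encodes an F-box protein. It was at 6.35 and 5.75 in local, 4.58 and 4.08 in systemic and 4.21 and 3.92 in control leaves, and the local arrays were themselves 0.59 apart. Both of its control arrays were under the lower quartile. AT1G78280, known as JMJ21, encodes a protein that combines an F-box with a JmjC domain, the fold of many histone demethylases. With 9.65 and 9.81 in local, 7.60 and 7.64 in systemic and 7.58 and 7.61 in control leaves, it had the smallest standard error of the named members (2.14 ± 0.10) and systemic arrays that differed from control by 0.03 on average.

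Membrane transport was the role of 3 named genes. AT1G22570 encodes a carrier of the NRT1/PTR family, which moves nitrate, peptides and other small solutes. Its local arrays were at 8.37 and 8.41, while the systemic arrays at 6.37 and 5.97 both lay below the control arrays at 6.65 and 6.46. The local difference was 1.84 ± 0.14 (SE), and the systemic difference of -0.38 was the lowest among the named members. AT4G13800, of the NIPA family of magnesium transporters, had 7.28 and 6.89 in local, 5.63 and 5.44 in systemic and 5.33 and 5.18 in control leaves. Its systemic arrays lay above both control arrays, at a difference of 0.28 that is just inside the limit. AT3G26590 encodes an exporter of the MATE family. The member probe set, 257314_at, had 7.27 and 6.94 in local, 6.12 and 5.78 in systemic and 6.20 and 5.48 in control leaves. Its other probe set, 257312_at, was at 5.23 and 5.01 in local, 5.12 and 4.95 in systemic and 5.00 and 5.09 in control leaves, so the probe sets of this gene disagreed, with local differences of 1.27 and 0.08.

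Enzymes of wall carbohydrates made up 2 named members. AT4G20860 encodes an oxidase of the berberine bridge enzyme-like family that acts on cellodextrins, fragments of cellulose. It was at 9.36 and 9.17 in local, 6.94 and 6.36 in systemic and 7.12 and 5.67 in control leaves. The control arrays were 1.44 apart, the widest gap between control replicates of any member, so its difference of 2.87 has a standard error of 0.40. Its systemic difference of 0.26 became 0.98 without control replicate 1, past the limit of 0.3, and -0.46 without control replicate 2. AT2G27500 is of the beta-1,3-glucanase family, whose enzymes cleave callose, the glucan laid down at wounds and in plasmodesmata. It had 10.80 and 10.38 in local, 8.74 and 8.21 in systemic and 8.67 and 8.26 in control leaves, a difference of 2.13 ± 0.22 (SE), and systemic and control arrays spanned nearly the same levels.

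Lipid proteins were also represented by 2 named members. AT4G39670, of the glycolipid transfer protein family, was at 6.56 and 7.14 in local, 5.46 and 5.10 in systemic and 5.38 and 5.09 in control leaves, a difference of 1.62 ± 0.21 (SE). AT3G05500, a lipid droplet protein of the rubber elongation factor family, had 10.60 and 10.81 in local, 9.52 and 9.50 in systemic and 9.27 and 9.42 in control leaves. Its systemic arrays were above both control arrays by a small amount, with a systemic difference of 0.17 against a local difference of 1.36 ± 0.11 (SE).

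Immune proteins accounted for 2 named members, both under the lower quartile in intact leaves. AT2G17660 belongs to the RIN4 family, named for a plasma membrane protein that several resistance proteins guard. It had 7.52 and 7.83 in local leaves, against 4.33 and 4.29 in systemic and 4.18 and 3.90 in control leaves, a difference of 3.63 ± 0.14 (SE). All 4 unwounded arrays were under the lower quartile, so the difference may be compressed by background, with the systemic arrays slightly above the control arrays. AT2G32140, with a Toll/interleukin-1 receptor domain as in many plant resistance proteins, stood at 5.54 and 4.76 in local, 3.91 and 3.91 in systemic and 3.79 and 3.68 in control leaves. Its local arrays differed by 0.78, the largest gap between local replicates among the named members.

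Of the tetrapyrrole and iron genes, HEMA2 (AT1G09940) encodes a glutamyl-tRNA reductase, the first committed enzyme on the way to haem and chlorophyll. Its levels were 8.14 and 7.93 in local, 7.27 and 6.87 in systemic and 6.82 and 6.76 in control leaves, a local difference of 1.24 ± 0.14 (SE). Both systemic arrays lay above both control arrays, by 0.28 on average, and HEMA2 is close to both limits of the rule. AT1G47400 encodes a peptide of the IRONMAN family, which promotes iron uptake. It was at 8.66 and 8.54 in local, 6.68 and 6.89 in systemic and 6.23 and 6.99 in control leaves, with systemic arrays between control arrays that were 0.77 apart.

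Among the other annotated members, AT3G19240 encodes a protein related to Vid27, a yeast protein named for vacuole import and degradation. It had 10.34 and 10.63 in local, 8.09 and 8.06 in systemic and 7.83 and 7.95 in control leaves, a difference of 2.6 ± 0.12 (SE), with all 4 unwounded arrays within 0.27 of each other. AT1G42980, with a formin homology domain as in proteins that assemble actin filaments, was at 5.81 and 5.75 in local, 4.84 and 4.72 in systemic and 4.44 and 4.70 in control leaves and had the smallest local difference of all members, 1.21. AT5G02230, of the haloacid dehalogenase-like hydrolase family, had 9.20 and 8.81 in local, 7.79 and 7.61 in systemic and 8.19 and 7.05 in control leaves. Its control arrays were 1.14 apart, and its local difference of 1.38 ± 0.32 (SE) became 0.81 without control replicate 2. Both systemic arrays lay between the control arrays, so the sign of its systemic difference depended on the control array used.

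The named members left have no role stated here. AT5G11070 was at 11.73 and 11.76 in local, 9.99 and 9.59 in systemic and 9.81 and 9.56 in control leaves, a difference of 2.06 ± 0.15 (SE). AT5G45350 had 10.81 and 10.84 in local, 9.63 and 9.76 in systemic and 9.35 and 9.57 in control leaves and a smaller difference of 1.36. In both genes the local replicates were within 0.04 of each other. The levels of AT2G38790 were 8.16 and 8.35 in local, 6.87 and 6.77 in systemic and 6.47 and 6.61 in control leaves. AT2G18690 had 7.92 and 7.39 in local, 6.57 and 6.16 in systemic and 5.98 and 6.32 in control leaves, with systemic and control arrays overlapping. AT5G06520 stood at 6.67 and 7.32 in local, 4.95 and 5.00 in systemic and 4.80 and 4.91 in control leaves. AT1G67920 had 6.72 and 5.97 in local leaves and systemic arrays (4.21 and 4.18, under the lower quartile) below its control arrays (4.43 and 4.30). In both genes the local arrays were over 0.6 apart, yet each local array exceeded the other 4 by more than 1.5. AT1G11210 was at 6.12 and 6.14 in local, 4.54 and 4.91 in systemic and 4.69 and 4.85 in control leaves. AT4G11710, read by a probe set of the type that can match similar transcripts, was at 5.44 and 5.44 in local, 4.0 and 4.13 in systemic and 3.86 and 4.14 in control leaves, with all 4 unwounded arrays under the lower quartile.

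Near the limits of the rule, membership turned on small differences. On the local limit, AT1G42980, HEMA2 and AT3G26590 were just inside, with local differences of 1.21, 1.24 and 1.27, and AT1G10340, AT1G64360 and AT3G44190 just outside, with 1.19, 1.17 and 1.16. AT1G64360 had 7.37 and 7.32 in local, 6.34 and 6.18 in systemic and 6.18 and 6.17 in control leaves, a profile like that of the members. On the systemic limit, HEMA2, AT2G38790 and AT4G13800 were inside at 0.28 each, and AT1G01390, AT1G49450 and AT2G23120 outside at 0.31, 0.31 and 0.32. The genes outside the group whose levels, after subtraction of each probe set's own mean, lay nearest to the members' median profile over the 6 arrays were AT2G23120, AT1G01390, AT3G62950, AT5G01700 and AT1G35350, at Euclidean distances of 0.40, 0.48, 0.52, 0.59 and 0.61. Their systemic differences were 0.32, 0.31, 0.34, 0.44 and 0.48, all above the limit.

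How far the description holds on arrays not used to choose was seen by applying the rule to 1 replicate set at a time. With the 3 replicate 1 arrays alone, 84 probe sets met it, of which 47 are members. On the 3 replicate 2 arrays these 84 had a median local difference of 1.43 (quartiles 1.1 and 2.14), and 58 of them, 69%, reached 1.2, where 2.65% of all probe sets did. Their median systemic difference there was 0.11, and 55 of them, 65.5%, stayed at or below 0.3, where 88.1% of all probe sets did. With the replicate 2 arrays alone, 82 probe sets met the rule, of which 50 are members. On the replicate 1 arrays 69 of these 82, 84.1%, reached 1.2 in local leaves, where 2.54% of all probe sets did, with a median of 1.74. Only 45 of the 82, 54.9%, stayed at or below 0.3 in systemic leaves, where 89.2% of all probe sets did, with a median systemic difference of 0.26 and an upper quartile of 0.68. The local and systemic limits are passed by very different shares of all probe sets, so these shares are not ranked against each other. On each replicate set taken alone, 35 probe sets met the rule. All 6 arrays were normalized together, so the unused arrays are not fully separate, and with 1 array per group there is no test.

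**Figure D3:**
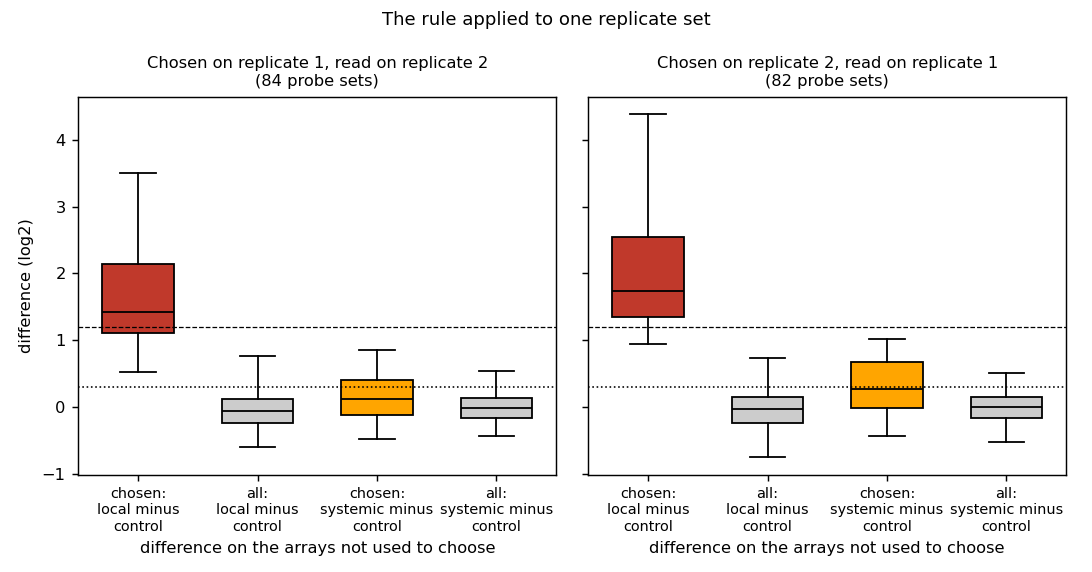
Differences (y axis, log2) on the 3 arrays that were not used to choose, for the 84 probe sets chosen on replicate 1 (left panel) and the 82 chosen on replicate 2 (right panel), beside all probe sets in grey. Boxes show quartiles and the median, whiskers the 5th and 95th percentiles, and the dashed and dotted lines stand at 1.2 and 0.3. The medians of the local difference stay above 1.2 (1.43 and 1.74), while the upper quartiles of the systemic difference, 0.40 and 0.68, exceed 0.3.

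The word confined describes the limit of 0.3 rather than a level of 0. The systemic difference was above 0 in 50 of the 68 members and below 0 in 18, and it lay within 0.1 of 0 in 26. Both systemic arrays were above both control arrays in 19 members, 27.9% of them, where 22.8% of all probe sets were, and below in 9, where 27.9% of all probe sets were. The rule used this contrast, so nothing is read from these shares. HEMA2, AT4G13800 and AT2G38790 are among the 19 with both systemic arrays above both control arrays, and AT3G27210, AT1G67920 and AT1G22570 among the 9 with both below.

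Replicate arrays of the members agreed less closely than those of all probe sets. The median gap between replicates was 0.28 in local, 0.23 in systemic and 0.19 in control leaves for members, and 0.11, 0.11 and 0.12 for all probe sets. In the 466 other strong rises it was 0.14, 0.33 and 0.20, so only the local gap was wider in the members than in these. The rule did not use the difference between systemic replicates. It did use their mean, which divides the members from the 466, so the shares below are not independent of the rule. Systemic replicate 1 lay above replicate 2 in 45 of 68 members, 66.2%, by a median of 0.07. In the 466 strong rises with a systemic difference above 0.3 it did so in 403, 86.5%, by a median of 0.29, and over all probe sets in 47.1%, by a median of -0.01. These shares describe the 3 sets of probe sets, and their difference was not tested.

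**Figure D4:**
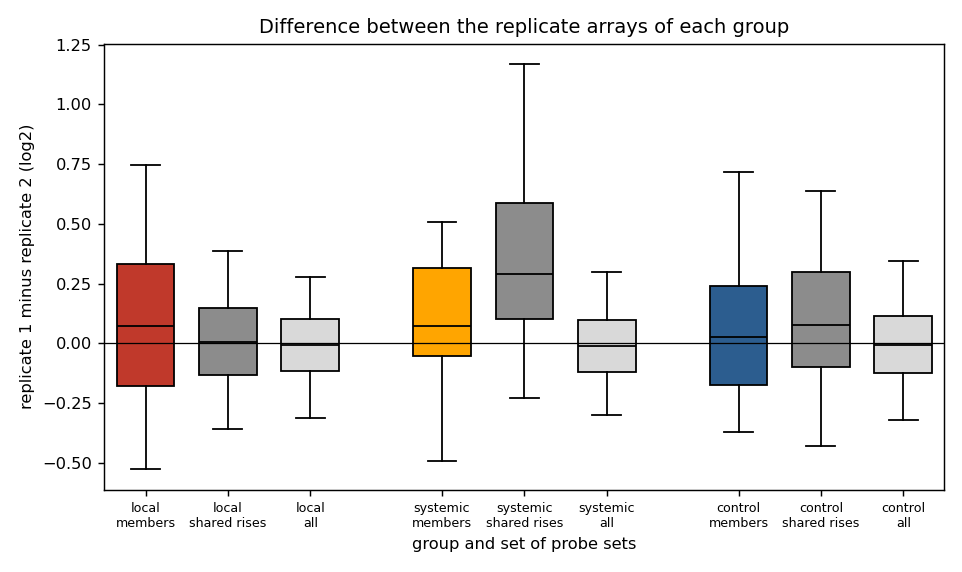
Replicate 1 minus replicate 2 (y axis, log2) within local, systemic and control leaves for the 68 members (coloured), the 466 other strong rises (dark grey) and all 22746 probe sets (light grey). Boxes show quartiles and the median, and whiskers the 5th and 95th percentiles. The systemic box of the 466 other strong rises is centred at 0.29, that of the members at 0.07 and that of all probe sets at -0.01.

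The named members were spread over the genome. In the TAIR10.1 gene table, 11 lay on chromosome 1, 6 on chromosome 2, 5 on chromosome 3, 4 on chromosome 4 and 9 on chromosome 5. AT4G11710 was not in the order of protein-coding genes used here, so its neighbours were not examined. Of the other named members, none was next to another. Their 68 neighbouring protein-coding genes were measured under a name in 36 cases. These 36 had a median local difference of -0.02, against -0.04 for all probe sets, and 6 of them were called higher and 6 lower (limma, adjusted p under 0.05, 9.92% and 13.7% of all probe sets). The neighbour with the largest value was BZIP60, a transcription factor of the unfolded protein response, which follows AT1G42980 and differed by 1.35 in local and 0.77 in systemic leaves, beside 1.21 and 0.21 for AT1G42980. AT1G64370, which precedes the AP2/ERF gene AT1G64380, differed by 0.94 in local and 0.13 in systemic leaves. Only 52.9% of the member probe sets carry 1 gene, below the 80% required here, so a check of gene length over the group is void.

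Of 313 genes in 19 lists of hormone, stress, receptor, wall, transport and clock genes, 30 were measured under a name and none of these 30 was a member, where 0.299% of all probe sets were. In 6 of the lists, among them the MAP kinase cascade, heat shock and ethylene synthesis, no gene was measured under a name, so the lists say little about the members. Among these 30, limma called 10 higher and 5 lower in local leaves, where 9.92% and 13.7% of all probe sets were. In systemic leaves it called 5 of them higher and 2 lower, where 4.73% and 3.67% of all probe sets were. Their median local difference was 0.06, against -0.04 for all probe sets. The 5 with a local difference of at least 1.2 were OPCL1 and JMT of jasmonate metabolism, the zinc finger factor STZ (ZAT10), the wall enzyme XTH18 and the clock gene GI, and their systemic differences were 1.42, 0.62, 4.13, 1.34 and 0.54, all above the limit. The dehydrin gene COR47 stayed below the local limit, with differences of 0.60 in local and -0.24 in systemic leaves. Its levels were 11.42 and 11.60 in local, 10.59 and 10.73 in systemic and 10.89 and 10.92 in control leaves.

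Measures of the arrays as a whole bear on these values as follows. Replicates correlated across probe sets at r of 0.995 to 0.997. For a ubiquitin transcript read near both of its ends, the 3' level minus the 5' level, which reflects RNA integrity, was lowest on the local arrays, at 0.97 and 1.05 in local, 1.23 and 1.26 in systemic and 1.33 and 1.25 in control leaves, so it set local arrays apart as the members do. A second ubiquitin pair did so too (-0.15 and -0.24 in local, -0.02 and -0.06 in systemic, -0.04 and -0.08 in control leaves), while 2 pairs each for actin and GAPDH overlapped between local arrays and the others. Of the cell type markers, 7 were measured under a name and none was a member. The phloem marker SWEET11, a sucrose exporter and the measured one of 6 listed, was at 11.40 and 11.50 in local, 10.85 and 11.07 in systemic and 10.41 and 10.90 in control leaves. The summed log2 level of the mesophyll markers LHCB4.1 and RCA, 2 of 6 listed, was 28.79 and 28.81 in local, 28.84 and 28.79 in systemic and 28.82 and 28.84 in control leaves. Each was close to the highest control mean of any probe set, 14.65, which leaves little room for a rise. The summed log2 level of the dividing cell markers AUR1 and AUR2, also 2 of 6, was 10.22 and 10.14 in local, 10.62 and 10.60 in systemic and 12.19 and 11.95 in control leaves. The guard cell marker FAMA, the measured one of 6, was at 6.43 and 6.59 in local, 6.83 and 7.08 in systemic and 6.56 and 7.04 in control leaves. The trichome marker TRY, the measured one of 5, was at 6.80 and 6.49 in local, 6.78 and 6.75 in systemic and 6.46 and 6.15 in control leaves, and no xylem or epidermis marker was measured under a name. The part of RNA quality or cell make-up in the members' levels was not tested.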

How the data were processed

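Total RNA (6 µg) of each leaf pool was labelled with a one-cycle 3' amplification kit and hybridised to an Affymetrix array, per the labels' protocols. The authors deposited 1 log2 value for each probe set and array. The submitters' processing notes name RMA and the Affymetrix Expression Console program, without a version. RMA subtracts background, forces the arrays to a common distribution and combines the probes of a set, so a shift shared by most transcripts is lost and differences between dim probe sets shrink. There are no detection calls, and the number of arrays limits the precision.

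Of 22810 probe sets, 64 control probe sets were left out and 22746 were used without a filter. Genes were named from the platform annotation, updated with a TAIR10.1 gene table: 13513 probe sets had 1 gene, 503 several and 8730 none listed. Of those with 1 gene, 13436 matched by Entrez number, 48 by locus and 29 kept the platform's name. Coordinates and sequences are not given, and planned promoter motif shares were not analysed here.

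R 4.3.3 and limma 3.58.1 gave standard errors and calls from one fit of 3 group means to all 6 arrays, two-sided, Benjamini-Hochberg over all probe sets, threshold 0.05, no replicate block (3 residual and 4.85 prior degrees of freedom). The fit was tested on simulated data. All 35 named members are described. The rule for other named genes took the 3 nearest on each side of a limit, the 5 most alike by Euclidean distance, measured genes of the pathway lists past the local limit, and neighbours in the gene order. AT1G64370 and COR47 were chosen after their values were seen. For a gene with several probe sets in a list, the one with the highest mean was used. The members, lists and role groups were chosen with earlier results of these data known. Alternatives were median centring, cyclic loess, other limits, single replicate sets, a dim filter, a replicate block, trended or robust moderation, the 4 arrays compared and each array left out.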

Additional observations from a re-analysis of the deposited data

Results flagged for a closer look

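In 9 members both local arrays lay above both control arrays while both systemic arrays lay below both control arrays. The difference was not tested, since the rule used these contrasts, and over all probe sets 27.9% had both systemic arrays below both control arrays. None of the 9 passed limma in systemic against control leaves (adjusted p at least 0.10). Among named genes, systemic minus control was -0.37 for AT3G27210, -0.17 for AT1G67920 and -0.38 for AT1G22570, beside local differences of 3.3, 1.98 and 1.84. Both systemic arrays of AT1G67920 were under the lower quartile, where levels may be close to background.

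Among probe sets without a listed gene, systemic minus control was -1.43 for 249867_at, -0.99 for 245891_at, -0.74 for 264261_at, -0.62 for 254247_at, -0.46 for 259426_at and -0.45 for 255127_at. The systemic arrays of 249867_at stood at 3.86 and 5.33, below control arrays at 5.92 and 6.12, with local arrays at 7.76 and 6.81. Those of 245891_at stood at 6.73 and 8.25, below control arrays at 8.55 and 8.42, with local arrays at 10.31 and 9.60. In both, the gap between the systemic replicates exceeded the size of the systemic difference. In 264261_at the systemic arrays were closer together, at 5.30 and 5.07, against control arrays at 6.11 and 5.75 and local arrays at 8.09 and 7.19. In the main fit 264261_at was not called (limma, adjusted p = 0.15). It was called lower in systemic leaves with the replicate number as a block and with the 4 systemic and control arrays alone (adjusted p = 0.033 in both). The rule used this contrast, so nothing is read from these calls. Without systemic replicate 2, 245891_at, 249867_at and 259426_at had systemic differences of -1.75, -2.16 and -0.72. These rest on 1 systemic array, which was the lower one in each.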

How the results depend on the processing

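The number of members was 68 by the rule, 71 after median centring and 75 after cyclic loess, of which 67 and 61 were among the 68. With a local limit of 1.0 or 1.5 it was 111 or 39, and with a systemic limit of 0.5 it was 119. Counting only probe sets with 1 gene left 36, or 35 genes. Without one array it ranged from 59 (without local replicate 1) to 92 (without systemic replicate 1), and 50 to 66 of the 68 were found again. Local against control calls over all probe sets ranged from 1437 to 2147 higher and 1386 to 2893 lower without one array. Systemic against control calls ranged from 537 to 935 higher and 250 to 732 lower, and local against systemic calls from 358 to 1175 higher and 200 to 1154 lower. The lowest counts of these ranges came without local replicate 1 or, for systemic against control, without systemic replicate 1. Members called higher in local against control numbered 63 to 68 and in local against systemic 56 to 68 without one array. In local against control leaves, the calls of AT5G02230, AT3G26590, 245891_at and 254247_at were lost without local replicate 1 (limma, adjusted p = 0.11, 0.054, 0.24 and 0.066), and those of AT5G02230 and 245891_at with robust moderation (adjusted p = 0.060 and 0.18). That of 245891_at was also lost without local replicate 2 (0.055) and without control replicate 1 (0.11) or 2 (0.14), and that of 254247_at without control replicate 2 (0.062). No member was called higher in systemic leaves under any of these settings, where 4.73% of all probe sets were in the main fit. The rule capped the systemic difference and set the local ones, so nothing is read from these counts of members. With the replicate number as a block 1 member, 264261_at, was called lower in systemic leaves, as it was with the 4 arrays compared (1) and without either local array. Without one array such calls ranged from 0 to 3, the 3 being without systemic replicate 2. Same-numbered arrays deviated from their group means with correlations of 0.14 (local and control), 0.02 (systemic and control) and 0.20 (local and systemic), so the numbers were not taken as pairs, and the block left the other counts within 1.5 times, with 2373 higher and 3329 lower in local against control. The cause of these changes was not tested. Promoter motifs were not run.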
